A study of Mus musculus with 10 samples.

Results

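The immediate early genes described here are Fos, Fosb, Jun, Junb, Egr1, Atf3, Nr4a1, Dusp1, Zfp36 and Ier2, 10 of the 53465 genes in the deposited count table. They were chosen by name as a family of rapid response genes, many of them known targets of cyclic AMP and the transcription factor CREB. The rule for the choice used no measured value, but it was made with earlier results of these data known. RNA was sequenced from peritoneal macrophages kept in culture, 5 libraries from control mice (CTR) and 5 from Mac-GsαKO mice (KO below), all from animals aged 6 to 8 weeks. The genotype name stands for loss of Gsα in macrophages. Both groups were grown in DMEM with 10% FBS and 1% penicillin-streptomycin at 37 °C and 5% CO2, and no stimulus was given to either. The sources used here do not name the deleting Cre line, the strain, the sex or the mouse behind each library. The SDs and p-values below therefore describe how far libraries differ, which may be technical.

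Immediate early genes are switched on within minutes of a stimulus by transcription factors that are already present in the cell, with no need for new protein. Gsα activates adenylyl cyclase, the cyclic AMP made activates protein kinase A, and this kinase phosphorylates CREB, which binds the cyclic AMP response element (CRE). Growth factor and stress kinases reach the same promoters by other routes, chiefly through serum response factor and its partners at the CArG box. In macrophages these genes answer microbial products, growth factors, adhesion and handling, and their mRNAs are short-lived.

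The promoters of these genes show which members carry the letters that CREB is known to bind. RefSeq (GRCm38.p6) gave a gene start for 8 of the 10 members (not Egr1 and Ier2), and the 250 bases before each start were searched on both strands for the full CRE TGACGTCA, its half-site TGACG, the AP-1 site TGANTCA and the CArG box. A full CRE counts also as 2 half-sites, one on each strand. The 5 sequences below show the range, from 4 half-sites to none, and are written 5′ to 3′ along the gene with the half-sites in capitals.
Dusp1 (chr17:26508473-26508722, minus strand): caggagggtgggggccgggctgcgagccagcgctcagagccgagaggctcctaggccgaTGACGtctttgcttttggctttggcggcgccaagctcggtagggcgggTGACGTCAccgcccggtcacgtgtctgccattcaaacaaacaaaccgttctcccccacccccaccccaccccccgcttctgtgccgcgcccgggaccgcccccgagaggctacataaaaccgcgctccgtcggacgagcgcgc
Fos (chr12:85473640-85473889, plus strand): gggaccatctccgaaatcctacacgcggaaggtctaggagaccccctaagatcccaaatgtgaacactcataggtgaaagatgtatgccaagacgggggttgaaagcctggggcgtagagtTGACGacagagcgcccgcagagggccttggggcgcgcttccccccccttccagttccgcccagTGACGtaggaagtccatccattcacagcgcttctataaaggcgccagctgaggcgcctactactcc
Nr4a1 (chr15:101266596-101266845, plus strand): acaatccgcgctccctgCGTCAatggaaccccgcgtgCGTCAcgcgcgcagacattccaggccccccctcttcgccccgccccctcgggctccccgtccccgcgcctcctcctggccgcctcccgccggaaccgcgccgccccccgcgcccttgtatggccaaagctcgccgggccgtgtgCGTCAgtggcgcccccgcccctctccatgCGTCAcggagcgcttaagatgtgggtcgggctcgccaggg
Atf3 (chr1:191183334-191183583, minus strand): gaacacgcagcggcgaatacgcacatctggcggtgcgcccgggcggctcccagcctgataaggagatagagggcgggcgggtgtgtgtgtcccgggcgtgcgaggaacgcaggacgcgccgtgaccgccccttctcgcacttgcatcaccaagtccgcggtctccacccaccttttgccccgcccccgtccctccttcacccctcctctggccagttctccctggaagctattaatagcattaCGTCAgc
Zfp36 (chr7:28379229-28379478, minus strand): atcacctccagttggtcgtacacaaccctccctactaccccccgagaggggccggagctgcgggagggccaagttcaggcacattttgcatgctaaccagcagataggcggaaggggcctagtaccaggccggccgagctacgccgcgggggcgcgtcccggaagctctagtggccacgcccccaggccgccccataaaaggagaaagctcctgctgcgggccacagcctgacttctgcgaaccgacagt
Dusp1 was the only one of the 8 with a full CRE, which 1.55% of all 32851 promoters in the table held and 2.56% of the 11958 promoters of genes tested here. Half-sites stood in 6 of the 8 (Fos 2, Fosb 1, Junb 1, Atf3 1, Nr4a1 4 and Dusp1 3, of which the full CRE gives 2), against 17.8% of all promoters and 26.7% of those of tested genes. Jun and Zfp36 had no half-site in this window. In these 250 bases Zfp36 was the only one with an exact CArG box (CC, 6 letters A or T, then GG), found in 1.47% of all promoters. None of the 8 had the exact AP-1 site, found in 6.75%. Sites farther upstream, or differing by a letter, were not searched, so the other members may hold such sites. A match is a description of the letters and does not show binding.

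The 10 libraries held between 15664243 and 19235777 counts. Gnas, which encodes Gsα, stood between 359 and 491 CPM (each gene's count over the library total, on the usual per-1e6 scale, with totals scaled by TMM) in CTR and between 37.0 and 43.5 CPM in KO, so each library matched its label. Macrophage markers were abundant in both genotypes, with Csf1r at 942 ± 89.4 CPM in CTR and 1295 ± 113 in KO and Cd68 at 2929 ± 197 and 2828 ± 112 (SD, n = 5 each). All 9 macrophage markers passed the filter on low counts, 2 rose (Csf1r and Itgam) and 1 fell, and 6 lay above 0 in log2 fold change. Over all genes tested, 1.83% rose and 2.11% fell (adjusted p under 0.05 by edgeR), and 49.2% lay above 0. Their summed level, 30289 to 38671 CPM in CTR and 14889 to 16447 CPM in KO, was carried by the 1 that fell, Lyz2, a lysozyme gene, at 26528 ± 3802 CPM in CTR and 9240 ± 517 in KO. Of the 7 markers of resident large peritoneal macrophages 5 were lower in value (median of the 7 on the log2 scale, -0.88), and 3 of these fell (Timd4, Selp and Alox15). Their summed level, 244 to 563 CPM in CTR and 349 to 603 CPM in KO, was mostly Cd5l, which averaged 273 and 460 CPM and did not pass the test. Over the 7 markers of T and NK cells the summed level was at most 1.81 CPM in any library, and over 5 erythroid markers at most 0.339 CPM. The summed level of 6 neutrophil markers was 18.8 to 27.4 CPM in CTR and 12.3 to 25.0 CPM in KO. Of these S100a8 fell from 19.1 ± 2.44 to 13.0 ± 2.26 CPM without overlap, at an adjusted p of 0.0443 by edgeR. Retnlg, the other marker tested, did not pass (log2 fold change -0.13, adjusted p = 0.919). S100a9 averaged 0.226 CPM in CTR and 0.185 in KO and was not tested, and Ly6g was at 0 in all libraries. The summed level of 6 fibroblast markers ranged from 30.1 to 137 CPM in CTR, the highest in CTR 5, and from 48.8 to 65.3 CPM in KO. Mitochondrial genes held 1.39 to 1.97% of the counts in CTR and 1.20 to 1.36% in KO, so the genotypes did not overlap. CTR 4 stood apart from the rest, with 17894 genes detected against 18479 to 18985 in the other 9 libraries. The part of these marker levels and of the mitochondrial share in the results below was not tested. In RNA from whole cultures, fewer cells of a type and less RNA per cell cannot be told apart.

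Of the 10 immediate early genes 9 passed the filter on low counts, and 1 of these, Zfp36, rose in KO at an adjusted p under 0.05 by the edgeR quasi-likelihood test. Over all 13203 genes tested, 1.83% rose and 2.11% fell by the same rule, 3.94% in all (241 and 279 genes). With scaling to library size alone the split over all genes was 312 and 213, and 1 member rose as before. None of the 9 fell by edgeR, none was lower at an unadjusted p under 0.05, and DESeq2 and limma voom also called 0 lower. In value 8 of the 9 were higher in KO, with a median log2 fold change (KO over CTR) of 0.27, while 49.2% of all genes tested lay above 0 and their median was -0.01. Jun, Junb, Atf3 and Zfp36 were higher at an unadjusted p under 0.05, a rule that 10.0% of all genes met in that direction, 11.9% in the other and 21.9% in either. In none of the 9 did the libraries of the 2 genotypes separate completely, which 7.80% of all genes did (3.25% with KO above CTR). The plot of values by library shows the overlap.

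**Figure D1:**
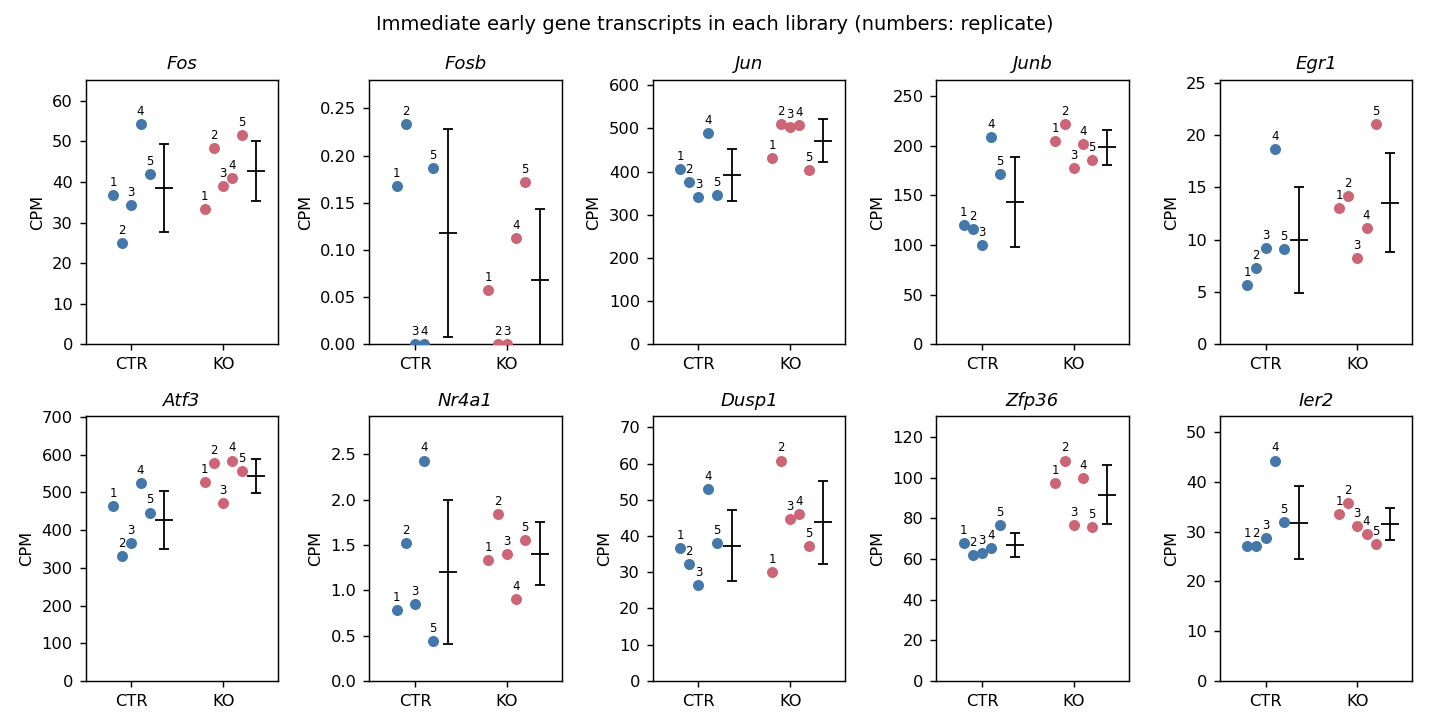
Level of each of the 10 immediate early genes in CPM (vertical axes start at 0) in the 5 CTR libraries (blue) and the 5 KO libraries (red), numbered by replicate, with the mean and SD in black. The KO points lie high for Junb, Atf3 and Zfp36, and CTR 4 reaches into or above the KO range for Fos, Jun, Junb, Egr1, Atf3, Nr4a1, Dusp1 and Ier2.

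Zfp36 encodes tristetraprolin, which binds AU-rich elements of cytokine mRNAs and speeds their decay. It stood at 67.6, 61.8, 62.9, 65.4 and 76.4 CPM in CTR 1 to 5 and at 97.4, 108, 76.8, 99.5 and 75.9 CPM in KO 1 to 5. KO 1 to KO 4 exceeded every CTR library, and KO 5 lay just under CTR 5. The mean rose from 66.8 ± 5.82 to 91.6 ± 14.5 CPM (SD, n = 5 each). By edgeR this is a log2 ratio of 0.46 (SE 0.12, adjusted p = 0.0485) or 1.37-fold with a 95% interval of 1.15 to 1.63. The call stood close to the threshold. It was lost with any 1 of CTR 1, CTR 2, CTR 3, CTR 4, KO 1, KO 2 or KO 4 left out (adjusted p from 0.0561 to 0.133), and held without CTR 5, KO 3 or KO 5 (adjusted p = 0.0445, 0.0463 and 0.0337), while the log2 fold change stayed between 0.39 and 0.52 in all 20 alternatives.

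Dusp1 encodes a nuclear phosphatase that removes phosphate from MAP kinases and so ends the signal that induces it. Its levels were 36.7, 32.2, 26.6, 52.9 and 38.2 CPM in CTR 1 to 5 and 30.1, 60.9, 44.7, 46.0 and 37.2 CPM in KO 1 to 5. The highest value was that of KO 2 and the next that of CTR 4, and the groups overlapped over most of their range. The log2 fold change was 0.23 (SE 0.20, adjusted p = 0.540), with a 95% interval from -0.21 to 0.67. The gene with the full CRE in its promoter window thus did not pass the test in either direction, and the interval reaches up to 1.59-fold.

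Ier2, a nuclear protein of growth factor responses, stood at 27.0, 27.1, 28.8, 44.3 and 32.0 CPM in CTR 1 to 5 and at 33.5, 35.8, 31.1, 29.6 and 27.6 CPM in KO 1 to 5. CTR 4 was the highest of all 10 libraries. The means were 31.9 ± 7.25 and 31.5 ± 3.20 CPM, and the log2 fold change was -0.01 (SE 0.14, adjusted p = 0.964), with a 95% interval from -0.32 to 0.29. Its sign turned with scaling to library size alone (0.03) and without CTR 4 (0.13), and no alternative called it.

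Fos, Fosb, Jun and Junb encode subunits of AP-1, the dimeric factor in which a Jun protein pairs with itself or with a Fos protein. Fos stood at 36.8, 25.1, 34.3, 54.3 and 42.0 CPM in CTR 1 to 5 and at 33.4, 48.4, 38.9, 40.9 and 51.6 CPM in KO 1 to 5. Its lowest library was CTR 2 and its highest CTR 4. The log2 fold change was 0.15 (SE 0.18, adjusted p = 0.668), with a 95% interval from -0.25 to 0.55, and it was 0.03 without CTR 2 and 0.30 without CTR 4. Fosb had between 0 and 4 counts per library, 16 in all, and was at 0 in CTR 3, CTR 4, KO 2 and KO 3. Fosb did not pass the filter on low counts and so was not tested. A count of 0 allows up to 3 counts, between 0.154 and 0.203 CPM here (counting error only), and no difference in Fosb was detectable at this depth.

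Jun stood at 405, 376, 341, 489 and 346 CPM in CTR 1 to 5 and at 432, 511, 503, 509 and 404 CPM in KO 1 to 5. KO 2, KO 3 and KO 4 exceeded every CTR library, while KO 1 and KO 5 lay below CTR 4. Its log2 fold change was 0.27 (SE 0.11, adjusted p = 0.195), or 1.20-fold with a 95% interval of 1.01 to 1.43. Junb, which often opposes Jun at AP-1 sites, stood at 120, 116, 99.5, 209 and 172 CPM in CTR 1 to 5 and at 204, 222, 177, 202 and 186 CPM in KO 1 to 5. Every KO library exceeded CTR 1, CTR 2, CTR 3 and CTR 5, and CTR 4 lay above 4 of the 5 KO libraries. The log2 fold change of Junb was 0.47 (SE 0.18, adjusted p = 0.150), or 1.39-fold with a 95% interval of 1.06 to 1.82.

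Exons of other genes lie on the opposite strand over 4 members in GENCODE M21 (GRCm38), and no source used here states the strand setting of the counting, so reads of the 2 strands may not have been kept apart. Prdx2, a peroxiredoxin gene that overlaps Junb, averaged 159 CPM in the controls and 137 CPM in KO, at an adjusted p of 0.235. Ergic1, which overlaps Dusp1, averaged 148 and 127 CPM, at an adjusted p of 0.140. Junos, an antisense transcript of Jun, averaged 3.52 and 4.15 CPM, and the fourth is Gm44710, a predicted gene over Zfp36, the member that was called. The level of Gm44710 is not given here, and its part in the Zfp36 counts was not tested.

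Atf3, a stress-induced factor of the CREB and ATF family that mostly represses its targets, was the most abundant member per exon length. It stood at 463, 332, 366, 523.7 and 447 CPM in CTR 1 to 5 and at 528, 577, 471, 585 and 556 CPM in KO 1 to 5. KO 1, KO 2, KO 4 and KO 5 exceeded all CTR libraries, and KO 3 lay below CTR 4 alone. The CTR mean was 426 ± 77.3 CPM and the KO mean 543 ± 46.0 CPM. Their log2 ratio was 0.35 (SE 0.12, adjusted p = 0.121), or 1.27-fold with a 95% interval of 1.06 to 1.53. Atf3 was thus higher in value but did not pass the test over all genes.

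Egr1, a zinc finger factor that guides macrophage differentiation and growth factor responses, had 102 to 367 counts per library. It stood at 5.70, 7.24, 9.20, 18.7 and 9.10 CPM in CTR 1 to 5 and at 13.0, 14.2, 8.28, 11.1 and 21.1 CPM in KO 1 to 5. The highest libraries were KO 5 and CTR 4, one of each genotype. Its log2 fold change was 0.45 (SE 0.31, adjusted p = 0.432), with a 95% interval from -0.23 to 1.12. The within-genotype SD of Egr1 on the log2 scale, 0.57, was larger than that of 90.2% of tested genes, whose median was 0.25, and that of Zfp36 was 0.19. The fold change of Egr1 therefore had the wider interval although its size was near that of Zfp36 (0.46).

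Nr4a1, the orphan nuclear receptor Nur77 that restrains inflammatory genes in macrophages, was scarce, with 7 to 36 counts per library. It stood at 0.782, 1.52, 0.846, 2.43 and 0.436 CPM in CTR 1 to 5 and at 1.33, 1.84, 1.40, 0.900 and 1.55 CPM in KO 1 to 5. CTR 4 held the highest value and CTR 5 the lowest, so the CTR libraries enclosed those of KO. The log2 fold change was 0.24 (SE 0.40, adjusted p = 0.760), with a 95% interval from -0.62 to 1.10. At this depth a change of Nr4a1 up to 2.14-fold was within the interval.

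Per exon length the members spanned several orders of magnitude, in the same order of groups in both genotypes. In CTR Atf3 stood at 198 ± 35.9 CPM per kilobase (SD, n = 5), Jun at 123 ± 18.9 and Junb at 62.2 ± 19.8, and each of these levels was separated from the next without overlap. Ier2 (20.9 ± 4.77), Zfp36 (19.3 ± 1.68), Fos (16.4 ± 4.58) and Dusp1 (11.3 ± 2.96) followed, and each of these overlapped its neighbour. Egr1 (2.23 ± 1.13), Nr4a1 (0.343 ± 0.225) and Fosb (0.0188 ± 0.0176) came last, each without overlap. In KO the order differed at 1 place: Zfp36 (26.4 ± 4.18) stood above Ier2 (20.7 ± 2.10), with overlapping libraries. With the authors' gene lengths, which exceed the exon union for 6 of the 10 members, the CTR order was the same and in KO Ier2 stood above Zfp36.

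**Figure D2:**
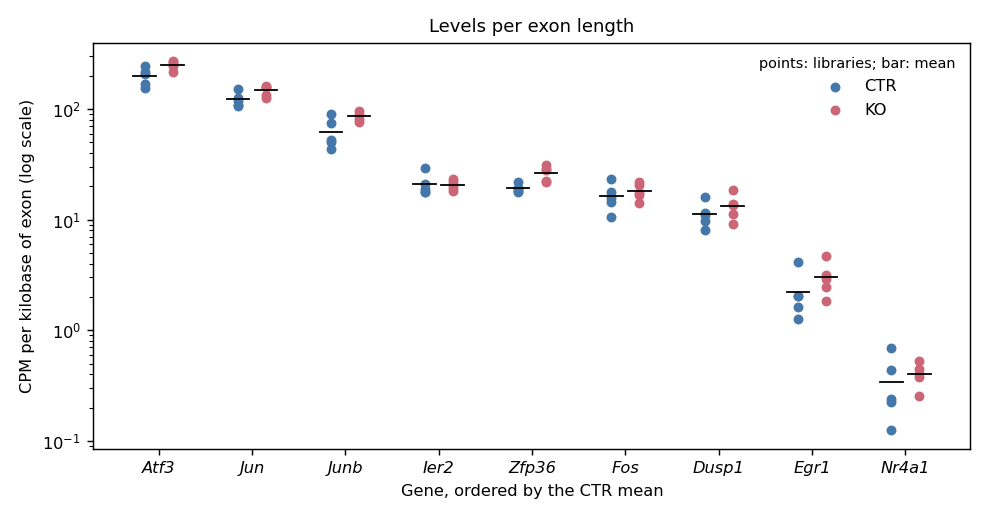
Level per kilobase of exon (log axis) of the 9 tested members, one point per library and a bar at the mean, ordered by the CTR mean. Atf3, Jun and Junb stand above the rest, and Nr4a1 is lowest, at 0.343 CPM per kilobase in CTR and 0.401 in KO.

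Among 7 AP-1 genes, the 4 members with Fosl1, Fosl2 and Jund, the summed level per exon length was made up mainly of Jund, Jun and Junb. Jund held 43.1 ± 2.75% in CTR and 41.2 ± 2.03% in KO, and Jun held 34.3 ± 4.03% and 33.7 ± 2.23%. Junb held 16.9 ± 2.26% in CTR (14.9 to 19.9%) and 19.7 ± 1.14% in KO (18.0 to 20.8%), and Fos held 4.50 ± 0.749% and 4.17 ± 0.911%. The ranges of the 2 genotypes overlapped for all 7 genes. No test was made of these shares.

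The libraries differed from each other in the same direction for most members. CTR 4 held the highest CTR value for 8 of the 9 tested members, all but Zfp36, while it was the highest of the 5 CTR libraries for 29.0% of all genes tested. CTR 4 was the highest of all 10 libraries for Fos, Nr4a1 and Ier2, and KO 2 for Jun, Junb, Dusp1 and Zfp36. The lowest of the 10 libraries was CTR 1 for Egr1 and Ier2, and CTR 2 for Fos, Atf3 and Zfp36. It was CTR 3 for Jun, Junb and Dusp1, and CTR 5 for Nr4a1. How often all genes tested had their lowest value in a CTR library was not computed. The mean log2 CPM of the 9 genes in CTR 4 lay 0.55 above the CTR mean and that in KO 2 also 0.55 above it, while the other KO libraries lay 0.19 to 0.35 above and the other CTR libraries 0.04 to 0.21 below. The summed level of 18 heat shock and early stress genes was also highest in CTR 4, at 3578 CPM, against 2342 CPM or more in CTR and 2570 to 3128 CPM in KO. Hmox1, Hsp90ab1 and Hspa8 weigh most in this sum, with CTR means of 808, 746 and 465 CPM. The fibroblast and mast cell markers of CTR 4 were the lowest of the CTR libraries (30.1 and 3.31 CPM). The part of these levels in the high values of CTR 4 was not tested.

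**Figure D3:**
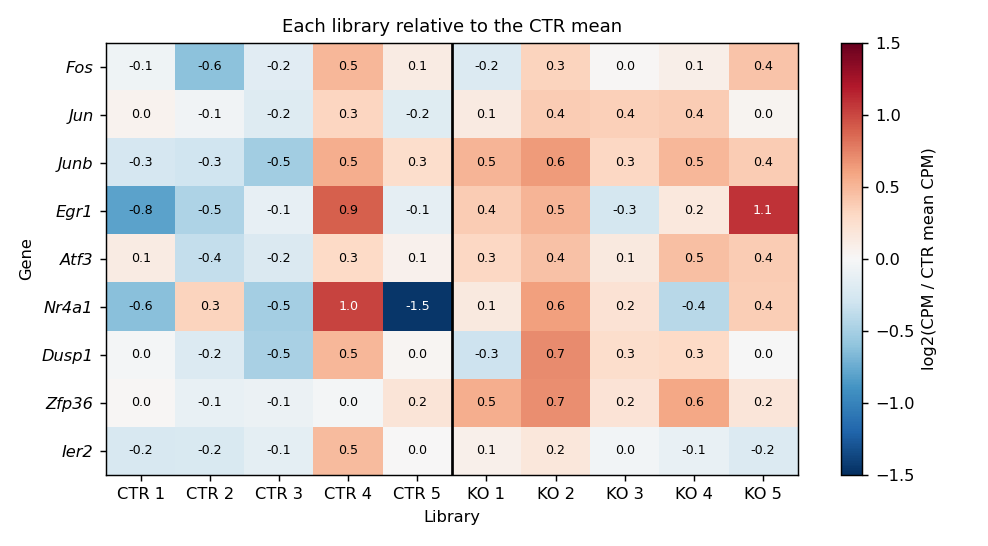
Log2 ratio of each library's CPM to the CTR mean CPM of the gene, for the 9 tested members (rows) and 10 libraries (columns, CTR left and KO right of the line). The column of CTR 4 is red in all rows but Zfp36 and resembles the KO columns, while CTR 1, CTR 2 and CTR 3 are mostly blue.

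Without CTR 4 the comparison moved towards higher levels in KO. Since CTR 4 was the highest CTR library for 8 of the 9 genes, leaving it out lowers their CTR mean by construction. Junb then had a log2 fold change of 0.65 (adjusted p = 0.0247), Atf3 0.44 (adjusted p = 0.0423) and Jun 0.36 (adjusted p = 0.0459) by edgeR, so that 3 of 9 rose, against 3.62% of all genes tested without CTR 4. Zfp36 kept its size (0.45) but not its call (adjusted p = 0.0561), and Egr1 had 0.79 (adjusted p = 0.0773). The 5 KO libraries then lay above the 4 remaining CTR libraries for Junb and Atf3, as they did for 5.95% of all genes. Without CTR 4 and CTR 5 the genes that rose were Junb (0.83, adjusted p = 0.00270), Atf3 (0.49, adjusted p = 0.0302) and Zfp36 (0.52, adjusted p = 0.0357), against 5.13% of all genes, and Jun had 0.34 (adjusted p = 0.0644). After CTR 4 (209 CPM), CTR 5 was the highest CTR library for Junb (172 CPM), so leaving out both lowers its CTR mean by construction. Limma voom with sample quality weights, which are estimated from these same libraries, called Jun, Junb, Atf3 and Zfp36 higher, against 7.77% of all genes. DESeq2 on all 10 libraries called Zfp36 alone (adjusted p = 0.00728), against 4.54%.

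**Figure D4:**
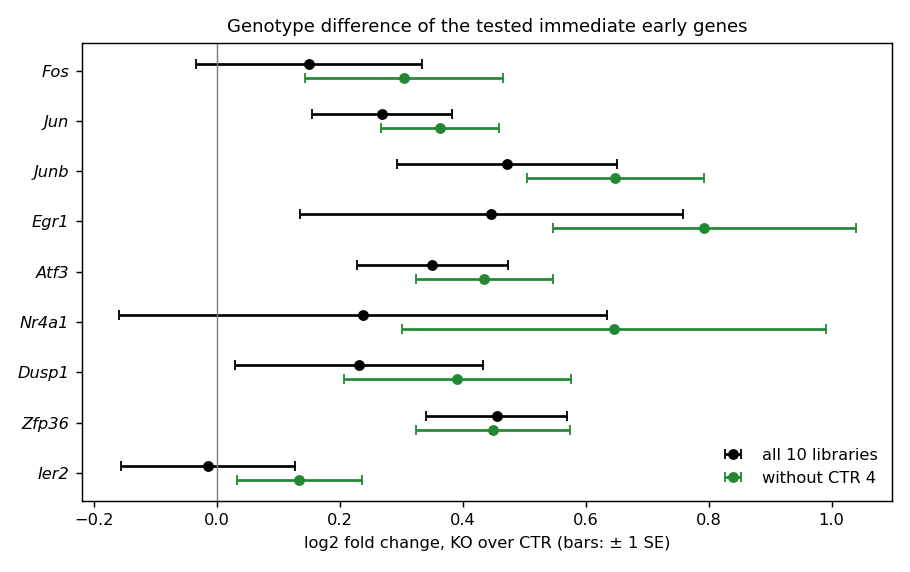
Log2 fold change of KO over CTR with its SE for the 9 tested members, over all 10 libraries (black) and without CTR 4 (green). Zfp36 stays at about the same place (0.46 and 0.45), while Egr1 moves from 0.45 to 0.79 and Ier2 from -0.01 to 0.13.

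Among 24 paralogues of the members, 21 passed the filter, 3 rose and none fell by edgeR (6 and 1 at an unadjusted p under 0.05, 4 and 0 by DESeq2, 6 and 1 by voom), with a median log2 fold change of 0.15. Over all 13203 genes tested, 1.83% rose and 2.11% fell by edgeR, and 10.0% and 11.9% at an unadjusted p under 0.05. DESeq2 called 599 of all genes higher and 690 lower, and voom 1026 and 893. The same background holds for the gene lists that follow. Some genes, such as Cxcl1, Per1 and Fosl2, stand in more than 1 list, so the counts of different lists are not separate results. Batf3, an AP-1 family factor best known from dendritic cells, averaged 2.64 ± 0.545 CPM in CTR and rose to 6.17 ± 1.14 in KO, by 1.22 on the log2 scale (SE 0.19, adjusted p = 0.00848). All KO libraries exceeded all CTR libraries, and the call held with any 1 library left out. Egr3, a close relative of Egr1, averaged 0.677 ± 0.347 CPM in CTR and rose to 1.87 ± 0.585, by 1.45 (SE 0.36, adjusted p = 0.0443), also without overlap. It was scarce, with 6 to 48 counts per library. Of all genes tested, 3.25% had KO above CTR without overlap. Zfp36l2, which like Zfp36 promotes mRNA decay, averaged 364 ± 43.0 CPM in CTR and rose to 492 ± 59.8, by 0.43 (SE 0.11, adjusted p = 0.0452). Egr3 kept its call only without CTR 2 among the 10 fits that left out 1 library, and Zfp36l2 only without CTR 2 or KO 5 (adjusted p up to 0.117 and 0.123 in the others).

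The other AP-1 paralogues named here, Fosl1, Fosl2 and Jund, did not pass the test. Fosl2 had a log2 fold change of 0.26 (adjusted p = 0.205), Jund 0.20 (adjusted p = 0.460, and 0.0348 without CTR 4 and CTR 5) and Fosl1 0.06 (adjusted p = 0.943) by edgeR. Egr2, the early growth response gene of alternatively activated macrophages, ranged widely between libraries, from 21.2 to 160 CPM in CTR and from 23.2 to 169 CPM in KO (0.03, SE 0.59, adjusted p = 0.983). Its highest libraries were KO 5 and CTR 4, the same as for Egr1. Nr4a2 had 0.15 (SE 0.35, adjusted p = 0.832), and Nr4a3, with 57 counts in all, did not pass the filter.

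Of 38 further immediate early genes 36 were tested, 3 rose and 2 fell by edgeR (8 and 3 at an unadjusted p under 0.05, 5 and 3 by DESeq2, 9 and 3 by voom), with a median log2 fold change of 0.15. The shares over all genes tested were 1.83% and 2.11% by edgeR, and 10.0% and 11.9% at the unadjusted p. Gadd45b, a stress sensor that activates p38 kinase, averaged 113 ± 8.86 CPM in CTR and rose to 170 ± 28.9, by 0.59 on the log2 scale (SE 0.12, adjusted p = 0.0246). Plk2, a polo-like kinase gene, averaged 313 ± 51.8 CPM in CTR and rose to 463 ± 51.2, by 0.57 (SE 0.12, adjusted p = 0.0258). Klf2, a factor that restrains macrophage activation, rose by 0.60 (adjusted p = 0.0407). Sgk1, a kinase gene induced by serum and glucocorticoids, averaged 664 ± 149 CPM in CTR and fell to 358 ± 84.0 (-0.89 on the log2 scale, SE 0.19, adjusted p = 0.0258). Id2, an inhibitor of basic helix-loop-helix factors, averaged 431 ± 101 CPM in CTR and fell to 241 ± 49.5 (-0.84, adjusted p = 0.0267). Klf2 and Id2 were named after their values were seen. In each of these 5 genes 1 or more KO libraries overlapped those of CTR.

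These calls lay near the threshold and were lost without some single libraries, while the sizes stayed close. With 1 library left out the log2 fold change was 0.53 to 0.68 for Gadd45b, 0.52 to 0.67 for Plk2, 0.54 to 0.73 for Klf2, -1.02 to -0.80 for Sgk1 and -0.98 to -0.76 for Id2. Those of Gadd45b and Sgk1 were each lost when CTR 3, KO 1, KO 2 or KO 4 was left out, with p rising to at most 0.0739 and 0.0776 after adjustment. Plk2 lost its call on leaving out CTR 1, CTR 3, KO 1, KO 2 or KO 4 (up to 0.0793), and Id2 on leaving out CTR 1, CTR 3 or any of KO 1 to KO 3 (up to 0.0807). Klf2 kept its call only without CTR 4 or KO 5 (up to 0.105 in the other 8).

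Of 27 cAMP-CREB target genes 21 were tested, 2 fell and none rose by edgeR (3 higher and 3 lower at an unadjusted p under 0.05, 1 and 3 by DESeq2, 4 and 3 by voom). Over all genes tested 2.11% fell and 1.83% rose by edgeR, and 10.0% were higher and 11.9% lower at the unadjusted p. The 2 that fell were Serpinb2, an inhibitor of plasminogen activators (log2 fold change -2.57, adjusted p = 0.00297), and Thbs1, the thrombospondin gene (-2.36, adjusted p = 0.00848). In value 14 of the 21 were higher in KO, with a median of 0.22. The classic CREB targets did not pass: Crem, whose inducible form ICER represses CRE promoters, had -0.33 (SE 0.19, adjusted p = 0.351), Sik1, a kinase that shuts off the CREB coactivators, had 0.24 (SE 0.13, adjusted p = 0.296), and Per1, a clock gene with a CRE, had 0.49 (SE 0.13, adjusted p = 0.0573). Per1 passed without CTR 1 (adjusted p = 0.0360), with library size alone (0.0496) and by DESeq2 (0.0120) and voom (0.0363). Gene-level counts do not separate ICER from the other Crem transcripts.

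None of 36 upstream kinases and factors that drive immediate early transcription was called by edgeR (3 higher and 1 lower at an unadjusted p under 0.05, 1 and 1 by DESeq2, 3 and 2 by voom), and their median was 0.08. Over all genes tested edgeR called 3.94%, and 10.0% were higher and 11.9% lower at the unadjusted p. The lowest p belonged to Prkar1a, a regulatory subunit of protein kinase A, with CTR at 329 ± 26.6 CPM and KO at 278 ± 13.1 (-0.24 on the log2 scale, adjusted p = 0.0968). Next came Rps6ka5, which encodes the CREB and histone kinase MSK1, at 3.37 ± 0.381 and 4.56 ± 0.423 CPM (0.44, adjusted p = 0.103). The libraries of the 2 genotypes did not overlap for either gene, 2 of the 36, nor did they for 7.80% of all genes tested.

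Of 15 mRNAs known to be bound by the Zfp36 protein, 11 were tested and none was called by edgeR (2 higher and 1 lower at an unadjusted p under 0.05, 1 and 1 by both DESeq2 and voom), with a median log2 fold change of 0.09. EdgeR called 3.94% of all genes tested, and 10.0% were higher and 11.9% lower at the unadjusted p. Nos2, the inducible nitric oxide synthase gene, averaged 2.77 ± 1.40 CPM in the controls and 8.40 ± 6.07 in KO (1.59, SE 0.45, adjusted p = 0.0694). Cxcl1, a neutrophil chemokine gene, averaged 3.81 ± 2.27 and 1.60 ± 0.608 CPM (-1.24, SE 0.37, adjusted p = 0.0801). This gene is also counted among the cAMP-CREB targets and the further immediate early genes. Among 17 tested heat shock and early stress genes 1 fell and none rose by edgeR (2 higher and 4 lower at an unadjusted p under 0.05, 1 and 2 by both DESeq2 and voom), with a median of -0.16. By edgeR 2.11% of all genes tested fell and 1.83% rose. The heat shock and early stress gene that fell was Hspe1, a mitochondrial chaperonin gene, with CTR at 52.6 ± 11.5 CPM and KO at 34.8 ± 2.25 (-0.60, SE 0.14, adjusted p = 0.0340), a call that 4 of the 10 fits with 1 library left out kept (those without CTR 1, CTR 2, CTR 4 or KO 5).

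The genes whose pattern over the libraries was most like that of the 9 tested members were found by the Pearson correlation of log2 CPM with the members' mean, the genotype means subtracted, over 10 libraries and 10241 candidate genes. They were Tcp1, a chaperonin subunit gene (r = 0.967, Spearman rho 0.867), Gpi1, a glycolytic enzyme gene (0.957, 0.867), Dusp5, a phosphatase gene of the Dusp1 family (0.953, 0.879), Tmem119, a membrane protein gene (0.953, 0.915), and Hnrnpl, which encodes an RNA-binding protein (0.947, 0.842). These are the highest values among many candidates and are given as a description. Without CTR 4 and KO 2, the 2 libraries farthest from the median, r fell to between 0.726 and 0.852. CTR 4 was the highest CTR library for each of the 5. Tcp1, Dusp5, Tmem119 and Hnrnpl did not pass the test between genotypes by edgeR (adjusted p from 0.785 to 0.870). Tmem119 moved from a log2 fold change of 0.12 to 0.68 without CTR 4 and was then called (adjusted p = 0.0497). Gpi1 rose (0.68, adjusted p = 0.0443), a call that of the 10 fits with 1 library left out only the one without CTR 4 kept (adjusted p = 0.00315, and up to 0.125 in the others).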

How the data were processed

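The authors deposited 1 table of whole-number read counts, a row for each Ensembl gene, with FPKM values beside them, per the file headers. CASAVA 1.8, HISAT2, SAMtools 1.3.1, edgeR and GRCm39 are named with no role, per the submitters' processing notes. The sources used here name no counter, strand setting or annotation. Each column carries a library code that the labels tie to 1 sample. The members and gene lists were chosen with earlier results of these data known, so no list was tested as a set.

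Counts were analysed in R 4.3.3. Genes were kept by filterByExpr (13203 of 53465, holding 99.9% of the counts), scaled by TMM and compared by the two-sided edgeR 4.0.16 quasi-likelihood test with genotype as the only term. P-values were adjusted by Benjamini-Hochberg over all genes tested, threshold 0.05. The SE was taken as |log2 fold change| divided by the root of the F statistic. The test was checked on simulated data, with the spread taken from the trend over all genes. It called 16 of 50 genes changed 1.5-fold, 45 of 50 changed 2-fold and 48 of 50 changed 3-fold. There were 11 false calls among the unchanged genes. The largest fold change of a member over all 10 libraries was 1.39 (Junb), below the smallest one simulated. The lengths implied by the authors' FPKM exceeded the exon union of GENCODE M21 for 6 of the 10 members, so levels per length here use that union, although its build is GRCm38. FPKM served for nothing else. The alternatives were DESeq2 size factors, library size only, 2 other filters, DESeq2 1.42.0, limma 3.58.1 voom with quality weights, a robust fit, the replicate number as a block, a length and GC correction (mgcv 1.9.3), each library left out in turn, and CTR 4 and CTR 5 left out together. Symbols were matched by gene identifier for 53274 genes. Named genes were the 10 members, Gnas, 10 paralogues and cAMP targets fixed by name, of each other list up to 3 called genes of lowest p (the lowest 2 where none was called) and the 5 genes of most similar pattern. Intervals and the limit for a count of 0 cover counting error or library spread only, and reads counted without molecular identifiers may repeat 1 molecule.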

Additional observations from a re-analysis of the deposited data

Results flagged for a closer look

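In groups of 5 libraries, the gap between an extreme library and its nearest neighbour exceeded 0.71 of the whole range, the 95% critical value of Dixon's test, in 12 of 80 groups examined over the named genes. Chance gives about 1 in 20 for independent groups of normally distributed values. The 80 groups come from the same libraries and are not independent, so this rate cannot be set against the 12. CTR 4 was the extreme library in 7 of the 12, each time high: Egr1 (18.7 CPM, next 9.20), Ier2 (44.3, next 32.0), Tcp1 (141.6, next 114), Gpi1 (581, next 375), Dusp5 (11.4, next 4.49), Tmem119 (7.57, next 2.56) and Klf2 (16.6, next 11.7). Tcp1, Gpi1, Dusp5 and Tmem119 were chosen for a pattern in which CTR 4 is high, so their values add nothing independent. KO 5 was high for Fosl1 (2.18 CPM, next 1.18) and Nr4a3 (0.574 CPM, next 0.233), both at low counts. KO 2 was low for Crem (3.28 CPM, next 5.16), KO 4 high for Nos2 (19.1 CPM, next 7.19) and CTR 5 high for Cxcl1 (7.79 CPM, next 3.50).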

How the results depend on the processing

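The number of immediate early genes that rose, 1 of 9 tested, was 0 with no filter on low counts and 0 with the replicate block, 4 by voom with quality weights, 3 without CTR 4 and CTR 5, and between 0 and 3 with 1 library left out. None fell under any of the 20 alternatives. Over all genes tested, 241 rose and 279 fell. The counts were 122 and 139 with no filter, 599 and 690 by DESeq2, 1026 and 893 by voom, 59 and 45 with the replicate block, and 694 and 491 without CTR 4 and CTR 5. With 1 library left out, between 32 (without KO 2) and 484 (without CTR 4) rose and between 30 and 384 fell, for the same libraries. Over the alternatives, 1 to 6 paralogues, 0 to 9 further immediate early genes and 0 to 4 cAMP-CREB targets rose. The labels do not say that equal replicate numbers pair samples. The same-numbered libraries had residual correlations from -0.126 to 0.0582, and in no same-numbered pair was each library the best match of the other. With the replicate block Zfp36 had a log2 fold change of 0.44 (adjusted p = 0.124).

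Of 180 values of members under alternatives, 156 kept direction and call, 9 lost a call (all Zfp36), 8 gained one and 7 changed sign, all of Ier2 and none called. Ier2 had 0.033 with library size only, 0.16 by voom, 0.0052 with the replicate block, 0.19 without CTR 4 and CTR 5, and -0.069 to 0.13 with 1 library left out. Values near 0 of other genes changed sign too. With 1 library left out, Fosl1 ranged from -0.28 to 0.33, Egr2 from -0.47 to 0.49, Nr4a2 from -0.055 to 0.34, Tcp1 from -0.073 to 0.037, Dusp5 from -0.36 to 0.25 and Tmem119 from -0.034 to 0.68. Nr4a2 had -0.10 by voom and -0.13 without CTR 4 and CTR 5. Tcp1 had 0.0030 with library size only, 0.021 by voom, 0.052 without CTR 4 and CTR 5 and 0.025 with the length and GC correction. Dusp5 had 0.16 by voom and 0.28 without CTR 4 and CTR 5, and Hnrnpl -0.062 with the length and GC correction. The cause of these changes was not tested. Depth limits Fosb, Nr4a1, Nr4a2 and Nr4a3, which had 16, 224, 154 and 57 counts in all. It also limits Fosl1 and Egr3, with 198 and 223 counts.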
